A study of Homo sapiens with 2 samples.

Results

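The 10 genes described here encode the core of the microRNA pathway: the Argonaute proteins AGO1, AGO2, AGO3 and AGO4, the scaffold proteins TNRC6A, TNRC6B and TNRC6C, and the processing factors DICER1, DROSHA and DGCR8. They were chosen by name, as the entries of the RNA peak lists whose Ensembl gene identifier, with its version removed, carries one of these symbols in GENCODE release 29. They made up 10 of the 20048 genes in the lists, with 97 of the 100792 peak entries of replicate 1 and 112 of the 109413 of replicate 2. All 10 had at least 1 peak in each library.

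The study sequenced cytoplasmic RNA of HEK293T cells, an established line derived from human embryonic kidney that carries the SV40 large T antigen, and set out to find RNA elements that CCR4-NOT associates with. CCR4-NOT is the main complex that shortens poly(A) tails. Its 2 libraries, replicates 1 and 2, form a single group named TRACER, a word the labels do not explain, and both came from cells given doxycycline at 3 ug/mL for 24 hours, extracted with Trizol and prepared with a Qiagen microRNA library protocol. No control, input or untreated library was analysed here, so no condition is compared, and whether the replicates were separate cultures is not stated, so their spread may reflect technical error alone.

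MicroRNAs are cut from hairpins in longer transcripts, first in the nucleus by DROSHA with its RNA-binding partner DGCR8, together called the Microprocessor, and then in the cytoplasm by DICER1. The mature strand is held by an Argonaute protein, which it guides to matching sites, mostly in 3′ UTRs, through its seed, bases 2 to 8. TNRC6 proteins bind Argonaute with their N-terminal part, which is rich in glycine-tryptophan repeats, and recruit CCR4-NOT and PAN2-PAN3 with their C-terminal silencing domain. The question asked of the data was where on the mRNAs of these proteins, which act just upstream of CCR4-NOT in microRNA silencing, peaks lay, and whether they repeated.

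The sequences below are those the results turn on. The first set gives 30 nt at the summit, the highest point, of regions that held a peak in each library, 5′ to 3′ on the mRNA, from GENCODE 29 transcripts (GRCh38). Capitals mark a match to a searched motif: UGUANAUA, which Pumilio proteins bind, the seed matches GCACUUU of the miR-17 family and CUACCUC of let-7, or the GU repeat UGUGUGU. Sequences without capitals held none of these.
TNRC6A CDS at codon 23: gggatttagtgcaagaagaagaacagttga
TNRC6A CDS at codon 1520: gaactcaaacttgaaTGTAAATAtggatat
TNRC6A 3′ UTR, 693 nt after the stop codon: ccaggacgggccctGCACTTTgaataggct
TNRC6B 5′ UTR: tggatttaagcactgctGCACTTTatgaga
TNRC6B CDS at codon 285: actaggaaattggaggaatgtgagtggtca
TNRC6C 3′ UTR, 241 nt after the stop codon: tattttgtgcgtcttatgtttgtatagtgt
AGO1 3′ UTR, 1728 nt after the stop codon: tttggctgtcttgcaggactggagaaggtg
DICER1 CDS at codon 1715: cgattttggaCTACCTCataaccaagcacc
DICER1 CDS at codon 1428: gaggaggagagcctgatgtggagggctccg
DROSHA 5′ UTR: gagctgataatctagtggaagagttagacg
DROSHA 3′ UTR, 757 nt after the stop codon: ctgTGTGTGTttgagatttgagagggcatg
DGCR8 CDS at codon 53: aatggacgttggctctggtggtgatggaca

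The second set gives mature microRNAs from the RefSeq microRNA table (GRCh38.p14), with the seed in capitals. The first pair is encoded inside the genes described here, and the second pair has the seeds whose matches are marked above.
miR-1306-3p: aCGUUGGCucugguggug
miR-3173-5p: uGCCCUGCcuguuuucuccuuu
miR-17-5p: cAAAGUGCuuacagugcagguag
let-7a-5p: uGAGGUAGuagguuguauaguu

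Depth limited every value. The files give reads per peak but no library total. Summed over distinct peaks there were 1585446 reads in replicate 1 and 1663907 in replicate 2, of which the 10 genes held 466 and 532, or 0.0294% and 0.0320%. No peak in either list had fewer than 3 reads, the median peak of the 10 genes had 4 in each library, and the highest had 13 in each, so a peak at 3 reads and no listed peak can differ by a single read. Each of 6 genes typical of the HEK293 lineage had reads in both libraries (454 and 696 in sum), and 9 markers of blood, liver, fibroblast and endothelial cells had 0, among them PTPRC, ALB, HBB, COL1A1 and PECAM1. The nuclear RNAs MALAT1 and NEAT1 had 1363 and 1056 reads together, so RNA known to be retained in the nucleus was present in libraries labelled cytoplasmic, and its part in the intronic peaks below was not tested. Fewer cells and less RNA per cell cannot be told apart in such bulk libraries.

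Reads in peaks, divided by exon length, were near or below those of a typical coding gene on all 10 mRNAs and differed widely between them. TNRC6A had the highest mean, from 6.58 and 8.98 reads per kb of exon in replicates 1 and 2, and AGO3 the lowest, from 0.804 and 0.284. The median over the 10 genes was 4.10 and 4.52, against 6.24 and 7.75 over all protein-coding genes with a peak. A level here combines the amount of an mRNA with its tendency to give peaks, and no input library separates them.

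**Figure D1:**
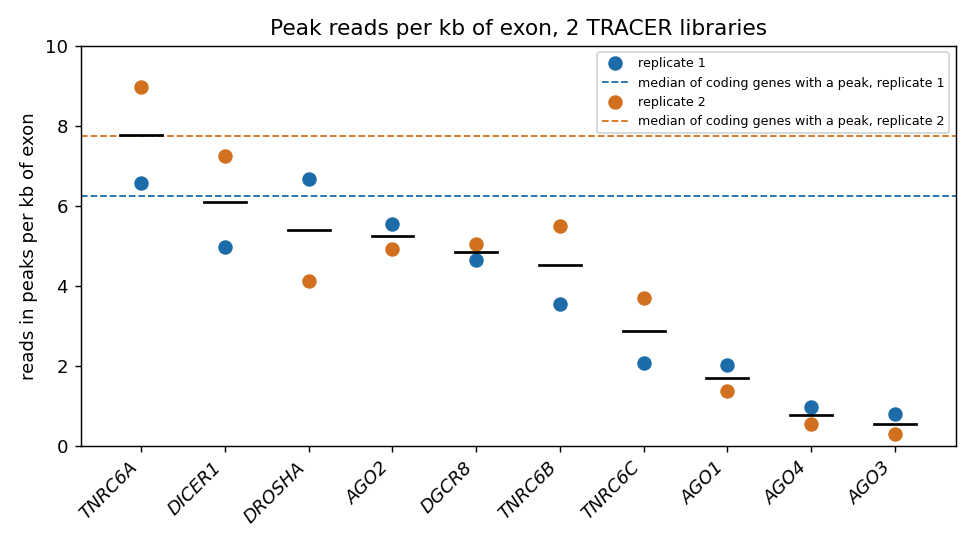
Reads in peaks per kb of exon (y axis) for the 10 genes (x axis, ordered by mean); points are the 2 libraries, black bars their mean, dashed lines the median of protein-coding genes with a peak in that library. TNRC6A at 6.58 and 8.98 lies above the median of the same library, 6.24 and 7.75, while AGO1, AGO3 and AGO4 lie lowest.

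By their mean levels the genes ordered as TNRC6A (7.78 ± 1.70 reads per kb, SD, n = 2), DICER1 (6.10 ± 1.61), DROSHA (5.40 ± 1.82), AGO2 (5.24 ± 0.447), DGCR8 (4.85 ± 0.290), TNRC6B (4.53 ± 1.38), TNRC6C (2.88 ± 1.15), AGO1 (1.69 ± 0.458), AGO4 (0.757 ± 0.292) and AGO3 (0.544 ± 0.368). Neighbours in this order overlapped between libraries except TNRC6C over AGO1 and AGO1 over AGO4. The upper part of the order is therefore not resolved. The gap between TNRC6C and AGO1 was also narrow, 2.07 against 2.02 reads per kb in replicate 1. In replicate 1 alone DROSHA came first, with 6.68 reads per kb, and in replicate 2 alone TNRC6A.

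The families differed in which part of the mRNA held the reads. Argonaute reads lay mostly in 3′ UTRs, 62.9% in replicate 1 and 88.8% in replicate 2, with 25.7% and 11.2% in coding sequence. The 3′ UTR is also most of the annotated UTR and coding length of these genes: 78.0% in AGO1, 80.4% in AGO2, 83.4% in AGO3 and 60.2% in AGO4. TNRC6 reads lay mostly in coding sequence, 59.2% and 63.3%, with 34.6% and 28.8% in 3′ UTRs. TNRC6C went the other way, with 26.1% and 31.7% of its reads in coding sequence and 56.5% and 48.8% in the 3′ UTR, so the family value is that of TNRC6A and TNRC6B. Reads of DICER1, DROSHA and DGCR8 together lay mostly in coding sequence, with 61.9% and 61.4% in coding sequence, 12.2% and 21.5% in 3′ UTRs and 21.1% and 15.2% in 5′ UTRs. Over all protein-coding genes, 23.0% and 23.6% of reads lay in 3′ UTRs, 55.9% and 57.6% in coding sequence and 8.32% and 8.15% in 5′ UTRs. The 3′ UTR percentages of the 3 families did not overlap over the 2 libraries. Within the Argonautes, AGO2 held 88 of the 140 Argonaute reads in replicate 1 and 78 of the 107 in replicate 2.

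**Figure D2:**
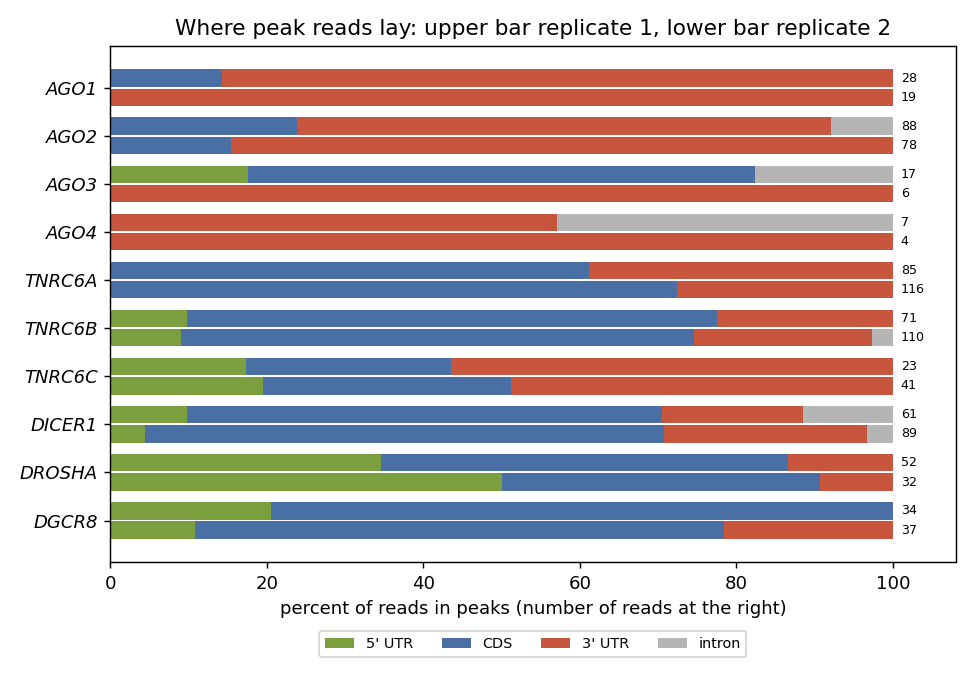
Percent of each gene's peak reads (x axis) in the 5′ UTR, coding sequence (CDS), 3′ UTR and introns, with replicate 1 above replicate 2 and the number of reads at the right. AGO2 is mostly 3′ UTR with 68.2% and 84.6%, DROSHA has the largest 5′ UTR share with 34.6% and 50%, and AGO3 and AGO4 rest on 17 reads or fewer.

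Per gene, the median share of reads in the 3′ UTR was 22.5% over the 9 members with at least 10 reads in replicate 1 and 26.7% over the 8 in replicate 2, against 21.1% and 20% over protein-coding genes with that many. The per-gene median was thus close to that of coding genes. Pooled over the 10 genes, however, 36.1% and 38.7% of reads lay in 3′ UTRs, above the 23.0% and 23.6% pooled over all coding genes. AGO2 alone gave 60 and 66 of the reads in 3′ UTRs. The 3′ UTR also makes up very different shares of these mRNAs: its annotated length is 17512 nt in AGO3 and 935 nt in DROSHA. Per kb, 3′ UTRs of the 10 genes held 0.446 and 0.669 peaks, their coding sequences 1.27 and 1.37 and their 5′ UTRs 1.58 and 1.23. Over all protein-coding genes the values were 0.820 and 0.865, 2.01 and 2.28, and 0.931 and 1.01. The 10 genes pooled lay below them in 3′ UTRs and coding sequence and above them in 5′ UTRs. The 5′ UTR value leaned on DROSHA, which gave 4 of the 9 and 3 of the 7 peaks there, at 8.83 and 6.62 per kb. The Argonaute 3′ UTRs pooled held 0.381 and 0.516 peaks per kb, but AGO2 alone held 0.925 and 1.18, and AGO3 0 and 0.114. Argonaute coding sequences pooled held 0.966 and 0.290, and that of AGO2 2.33 and 1.16. By peaks per kb, AGO2 was thus not denser in its 3′ UTR than in its coding sequence in replicate 1, and nearly equal in replicate 2. The pooled 3′ UTRs of TNRC6 held 0.611 and 0.814.

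With no control library, repetition is the check these files allow. A peak counted as repeated when it overlapped, by 1 nt or more and on the same strand, some peak of the second library. In replicate 1, 39 of 97 peaks did, or 40.2% (exact 95% binomial interval 30.4 to 50.7, which covers counting error only), against 59.3% of peaks of all protein-coding genes. In replicate 2, 39 of 112 did, or 34.8% (26.1 to 44.4), against 54.4%. The 10 genes were below the background in both libraries, and they had few reads per peak.

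The comparison was repeated within classes of read number, which share the 3-read limit of the lists. Of peaks with 3 to 4 reads, 27.3% (16.1 to 41.0) and 18.3% (10.1 to 29.3) repeated, against 33.6% and 27.1% of coding-gene peaks. With 5 to 9 reads the values were 56.4% (39.6 to 72.2) and 57.6% (39.2 to 74.5), against 63.7% and 54.7%. With 10 or more reads, 2 of 3 and 7 of 8 repeated, against 91.7% and 87.5%. Every one of these intervals held the background of its class. Peaks of 3 to 4 reads made up 55 of the 97 and 71 of the 112.

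**Figure D3:**
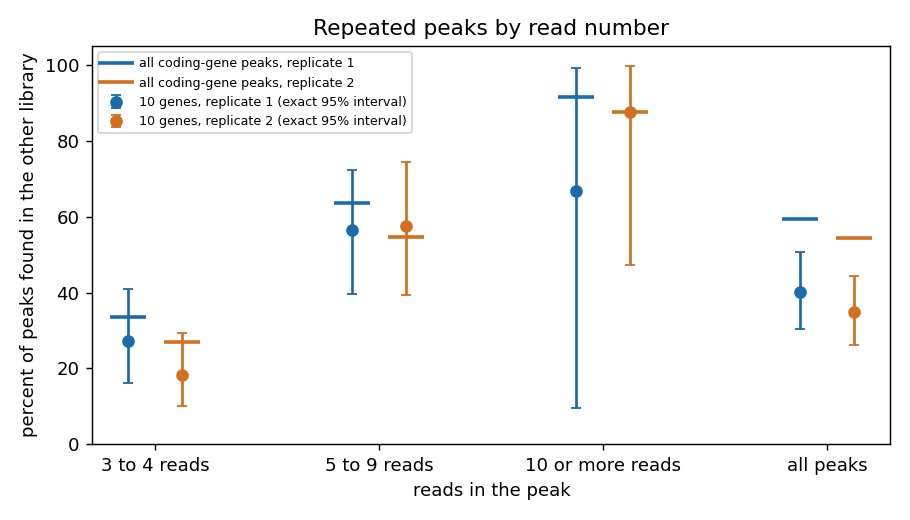
Percent of peaks that overlap a peak of the other library (y axis) by the number of reads in the peak (x axis); points with exact 95% intervals are the 10 genes and short lines are all peaks of protein-coding genes. Over all peaks the points at 40.2% and 34.8% lie under the lines at 59.3% and 54.4%, and within each read class the intervals include the lines.

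Merging overlapping peaks gave 39 regions with a peak in each library, 17 in coding sequence, 15 in 3′ UTRs, 6 in 5′ UTRs and 1 in an intron. TNRC6A held 10, DICER1 7, AGO2 and TNRC6B 6 each, DROSHA 4, TNRC6C 3, DGCR8 2 and AGO1 1, while AGO3 and AGO4 held 0. Peaks of both libraries covered 0.587% of the 3′ UTR bases of the 10 genes, 1.24% of their coding bases and 3.20% of their 5′ UTR bases, against 1.37%, 3.30% and 2.35% over all protein-coding genes. Of the 182 covered 5′ UTR bases, 81 were in DROSHA. The summits of the 2 libraries lay a median of 6 nt apart, 19 of the 39 within 5 nt, and at most 44 nt apart. A repeated 3′ UTR peak was found in 6 of the 10 genes (42.6% of protein-coding genes with a peak, and 44.3% of those within the same range of reads), a repeated coding-sequence peak in 5 of 10 (55.5% and 58.6%), a repeated 5′ UTR peak in 4 of 10 (20.5% and 18.7%) and any repeated peak in 8 of 10 (76.2%). With 10 genes these counts are too small to set the group apart from its background.

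**Figure D4:**
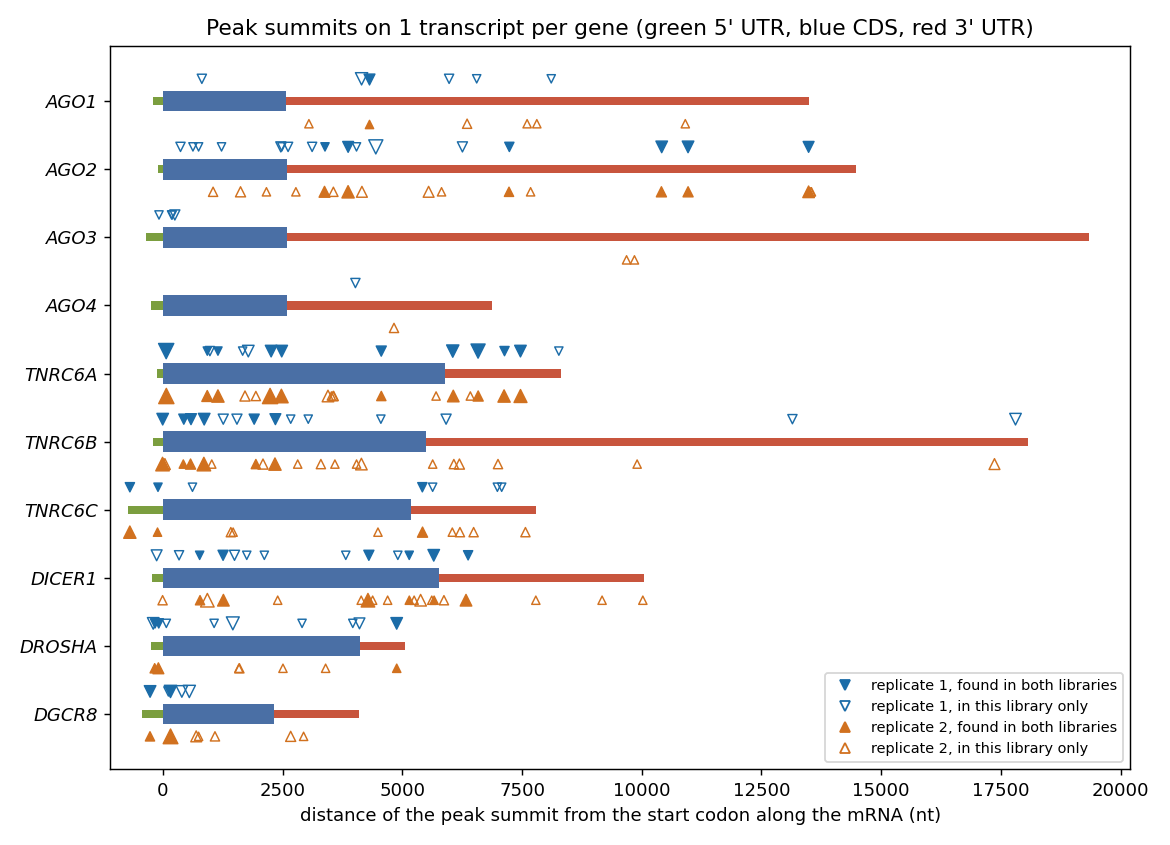
Peak summits of both libraries along 1 transcript per gene, by distance from the start codon in nt (x axis); boxes are the 5′ UTR (green), CDS (blue) and 3′ UTR (red), symbols grow with the reads, and filled symbols overlap a peak of the other library. Filled symbols gather in the 3′ UTR of AGO2, in the first part of the CDS and the 3′ UTR of TNRC6A, in the first part of the CDS of TNRC6B, and at the 5′ end of DROSHA and DGCR8.

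AGO2 is the Argonaute that can cut its target. Its gene (ENSG00000123908, chromosome 8, 140520156 to 140635619, minus strand) had 88 reads in 18 peaks in replicate 1 and 78 in 17 in replicate 2. All 6 of its repeated regions lay in the last exon, in the 3′ UTR of 11888 nt, at 795, 1287, 4655, 7837, 8387 and 10905 nt after the stop codon. The strongest, at 1287 nt, held 6 and 8 reads, with deposited p-values of 0.000125 and 2.37e-06. The region at 4655 nt held 4 reads in each library and a Pumilio motif, and that at 7837 nt, with 7 and 5 reads, held overlapping copies of UGUGUGU. None of the 6 coding-sequence peaks of replicate 1 overlapped one of the 3 in replicate 2, so the reads in AGO2 coding sequence, 23.9% and 15.4%, did not repeat in position. Those peaks held 3 to 5 reads each. Of all coding-gene peaks with 3 to 4 reads, only 33.6% and 27.1% repeated. The peak with the most reads in replicate 1, with 11, lay 1866 nt after the stop codon and had no counterpart in replicate 2. Another 7 reads of replicate 1 lay in an intron, where replicate 2 had none.

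The other Argonautes gave few reads despite long 3′ UTRs. AGO1 (ENSG00000092847, chromosome 1, 35869808 to 35930528, plus strand), a slicing-impaired paralogue, had 28 and 19 reads, 85.7% and 100% of them in its 3′ UTR of 10921 nt. Its single repeated region (chromosome 1, 35921318 to 35921349, exon 19 of 19) held 6 and 3 reads with summits 1 nt apart. A stronger peak of 8 reads, 1575 nt after the stop codon, was found in replicate 1 only, so at this depth even the leading AGO1 peak did not repeat.

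AGO3 and AGO4 are neighbours of AGO1 on the same strand of chromosome 1. AGO3 (ENSG00000126070, 35930718 to 36072500) had 17 reads in 5 peaks in replicate 1, 11 of them in coding sequence and 0 in the 3′ UTR, and 6 reads in 2 peaks in replicate 2, all of them in the 3′ UTR. AGO4 (ENSG00000134698, 35808172 to 35857890) had 7 reads in 2 peaks and 4 reads in 1 peak. No position repeated in either gene, and the 3′ UTR percentages of AGO3, 0 and 100, show only how few reads there were.

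TNRC6A, also called GW182, had the most repeated regions. The gene (ENSG00000090905, chromosome 16, 24610209 to 24827632, plus strand) had 85 reads in 14 peaks and 116 in 18, and 10 peaks of each library repeated. Coding sequence held 61.2% and 72.4% of the reads and the 3′ UTR 38.8% and 27.6%. Peaks of both libraries covered 6.10% of its 3′ UTR bases, against 1.37% of those of all protein-coding genes, and 3.07% of its coding bases, against 3.30%.

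The strongest region of all 10 genes was the TNRC6A one at codon 23 in exon 3 of 25 (chromosome 16, 24750723 to 24750794), with 13 reads in each library and p-values of 2.97e-11 and 2.05e-11. It began close to the start of its exon, and the window printed above runs across the junction into the exon before. Another 4 repeated regions lay in exon 6, in the N-terminal part, with summits at codons 309, 383, 746 and 825. The pair at codons 746 and 825 held 7 and 13 reads and 7 and 10 reads, and the pair at codons 309 and 383 held 3 and 6 reads and 3 and 8. Read numbers thus differed between libraries while positions held, with summits 0 to 22 nt apart. The sixth, at codon 1520 in exon 18, held 5 and 4 reads, and its summit lay on the UGUAAAUA printed above.

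In the TNRC6A 3′ UTR, 4 regions repeated, at 164, 693, 1236 and 1579 nt after the stop codon. The one at 693 nt (24824483 to 24824515) held 11 and 5 reads, with p-values of 1.80e-09 and 0.000858, and GCACUUU lay at its summit, 24824499 to 24824505. The one at 1579 nt held 7 and 9 reads, and UGUUUAC, the seed match of miR-30, touched its edge. Those at 164 and 1236 nt held 8 and 7 reads and 4 and 8 reads, and no searched motif.

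TNRC6B had reads over its whole length, and its 6 repeated regions lay at the start codon and in the first part of the coding sequence. The gene (ENSG00000100354, chromosome 22, 40044817 to 40335808, plus strand) had 71 reads in 14 peaks and 110 in 23. Its 5 repeated coding regions had summits at codons 146, 196, 285, 636 and 780, all within the first 2339 nt of a coding sequence of 5502 nt, the part of the protein that binds Argonaute. The strongest, at codon 285 (40265060 to 40265114), held 7 and 10 reads. The 3′ UTR of 13133 nt had 3 peaks in replicate 1 and 6 in replicate 2, and 0 repeated, although 22.5% and 22.7% of reads lay there. Equal shares in the 2 libraries therefore came from different positions. These peaks held 3 to 7 reads each. Of all coding-gene peaks, 33.6% and 27.1% of those with 3 to 4 reads repeated, and 63.7% and 54.7% of those with 5 to 9.

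The TNRC6B 5′ UTR region (40178103 to 40178152) held 7 and 10 reads, with its summit 9 nt before the start codon of the transcript used for display. It carried GCACUUU, printed above, directly before the start codon. The 5′ UTRs of the 10 display transcripts held 2 copies of this heptamer, and the other lay under no repeated peak. No share over the 5′ UTRs of all protein-coding genes is given here to set beside this count. Replicate 2 also had a peak of 5 reads just across the exon junction, and whether the same fragments gave both peaks was not tested.

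TNRC6C (ENSG00000078687, chromosome 17, 77959240 to 78108835, plus strand) had 23 reads in 7 peaks and 41 in 10, of which 3 repeated. Its 3′ UTR region, 241 nt after the stop codon (78105068 to 78105105), held 4 and 5 reads, and its coding region (78048937 to 78048974) 3 in each. That coding region is 5′ UTR in the transcript used for display and coding in another isoform. The 5′ UTR region (78004183 to 78004226) held 4 and 8 reads.

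The TNRC6C 5′ UTR region and the strongest TNRC6A region hold nearly the same sequence. Over 30 nt aligned without gaps, 28 bases were identical, shown in capitals.
TNRC6A window: GAACagTTGATGGAAGAAAAGAAAAAGAAA
TNRC6C window: GAACgtTTGATGGAAGAAAAGAAAAAGAAA
Of 114 pairs of repeated regions from paralogues, the median identity was 16 of 30. The pair of TNRC6B codon 196 with the TNRC6C coding region had 24, and the pair of TNRC6A codon 746 with TNRC6B codon 636 had 22. In that last TNRC6B region the summits of the 2 libraries lay 35 nt apart. Among 489 pairs of unrelated genes the median was also 16 and the highest 21. At least 20 bases matched in 4 pairs of paralogues and in 4 pairs of unrelated genes. So a peak was found in each paralogue on a shared sequence, at 13 and 13 reads in TNRC6A against 4 and 8 in TNRC6C. The 25 nt at the summit of either region occurred in no other gene's transcripts. Those 25 nt include bases outside the identical stretch printed above, so the search cannot show which gene gave reads within that stretch. The rules by which the authors placed reads with several possible origins are not fully given in the sources used here.

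DICER1, which cuts precursor hairpins to mature length, had the second highest mean of reads per kb. The gene (ENSG00000100697, chromosome 14, 95086228 to 95158010, minus strand) had 61 reads in 15 peaks and 89 in 20, and 7 repeated. In coding sequence lay 60.7% and 66.3% of the reads and in the 3′ UTR 18.0% and 25.8%. The strongest repeated coding region, at codon 1428 in exon 23 of 27 (95096598 to 95096679), held 5 and 10 reads with summits 19 nt apart. Others had summits at codon 421, with 5 and 7 reads, at codon 259, with 3 and 4, and at codon 1715, with 3 in each. A coding peak of 10 reads at codon 310 in replicate 2 had no counterpart in replicate 1. Of coding-gene peaks with 10 or more reads in replicate 2, 87.5% repeated.

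The region at codon 1715 (95094093 to 95094119, exon 24) carried CUACCUC at codon 1713, a match to the let-7 seed, as the printed sequences show. DICER1 coding sequence is a known target of let-7. In the coding sequences of the display transcripts of the 10 genes there were 7 such matches, of which this one lay under peaks of both libraries, and so did 1.73% of the 2139 in all protein-coding genes with a peak. Another 3 matches in DICER1 coding sequence, at codons 879, 1214 and 1250, lay under no peak. The site thus rests on 3 reads in each library, the fewest that the lists hold.

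The strongest repeated 3′ UTR region of DICER1, 561 nt after the stop codon (95089892 to 95089980), held 4 and 7 reads, but its summits lay 44 nt apart. A second region counted as 3′ UTR (95090582 to 95090636), with 7 and 3 reads, is 3′ UTR in an alternative isoform and coding, at codon 1886, in the display transcript. Counted as coding, it lowered the mean 3′ UTR share of DICER1 from 21.9% to 14.5%.

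DROSHA, the nuclear RNase III, had the largest share of reads in the 5′ UTR among the 10 genes. The gene (ENSG00000113360, chromosome 5, 31400497 to 31532196, minus strand) had 52 reads in 11 peaks and 32 in 8, with 34.6% and 50% of them in a 5′ UTR of 453 nt. Peaks of both libraries covered 17.9% of these bases, against 2.35% of the 5′ UTR bases of all protein-coding genes. The 3 repeated 5′ UTR regions lay at 31530809 to 31530885 with 4 and 6 reads, at 31530887 to 31530925 with 4 in each, and at 31531456 to 31531507 with 3 and 6. The first pair is exon 2 of the display transcript, 96 and 166 nt before the start codon, and its members adjoin each other, while the third belongs to another isoform.

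None of the 6 and 4 coding peaks of DROSHA repeated. Most of them held 3 or 4 reads, a class in which 33.6% and 27.1% of coding-gene peaks repeated. In replicate 1, however, the peak at codon 487 held 9 reads and that at codon 1369 held 6. Of coding-gene peaks with 5 to 9 reads in that library, 63.7% repeated. Its 3′ UTR region, 757 nt after the stop codon (31400665 to 31400686), held 7 and 3 reads with summits 1 nt apart and touched 2 overlapping copies of UGUGUGU, of which the printed sequence has the second in capitals, while the first begins 2 nt before it. Reads per kb of exon were higher in replicate 1, at 6.68, than in replicate 2, at 4.11.

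DGCR8, the RNA-binding subunit of the Microprocessor, had 34 reads in 5 peaks and 37 in 7 (ENSG00000128191, chromosome 22, 20080232 to 20111877, plus strand). Its mRNA carries hairpins in exon 2 that the Microprocessor is known to cut, one in the 5′ UTR (MIR3618) and one at the start of the coding sequence (MIR1306). The strongest DGCR8 peak lay on the latter. At codon 53 (20086095 to 20086146) it held 8 and 12 reads, with p-values of 2.36e-06 and 4.91e-10 and summits 1 nt apart, and in both libraries it covered all 18 nt of miR-1306-3p (20086112 to 20086129). The identity can be read in the printed sequences, where the microRNA lies inside the DGCR8 window.

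The other arm, miR-1306-5p, lay partly under a peak of 4 reads in replicate 1, which covered 12 of its 22 nt, and under none in replicate 2. MIR3618 had no peak in either library. The second repeated DGCR8 region (20085684 to 20085710) lay in the 5′ UTR, ahead of MIR3618, with 7 and 4 reads. DGCR8 had 0% and 21.6% of reads in its 3′ UTR, the latter from 2 peaks of 5 and 3 reads.

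DICER1 also hosts a microRNA. Its only repeated intronic region (95137962 to 95137982), with 4 and 3 reads and identical summits, covered 21 and 19 of the 22 nt of miR-3173-5p (95137961 to 95137982), and a peak of 3 reads in replicate 1 covered 18 nt of miR-3173-3p. The width of this region, 21 nt, was close to that of the mature microRNA. The region at miR-1306-3p was wider, with 28 nt in replicate 1 and 52 in replicate 2.

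**Figure D5:**
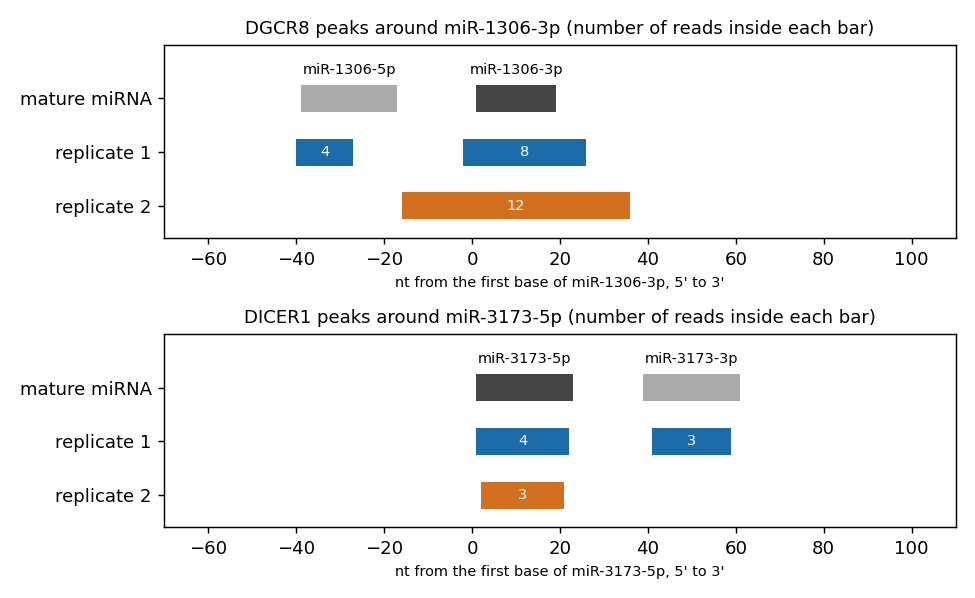
Peaks of DGCR8 around miR-1306-3p and of DICER1 around miR-3173-5p in each library, by distance in nt from the first base of that microRNA (x axis), with the reads inside each bar and the mature microRNAs in grey. The repeated DGCR8 peaks extend past both ends of miR-1306-3p, and the repeated DICER1 peaks stay within miR-3173-5p. Replicate 1 also has a peak at the other arm of each microRNA, of 4 reads in DGCR8 and 3 in DICER1.

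The lists also held other gene entries at these places, so reads of the host gene's RNA, spliced or unspliced, and of the microRNA cannot be told apart. At miR-3173-5p, MIR3173 was listed with 4 and 3 reads, as many as DICER1. At miR-1306-3p, an entry whose identifier, ENSG00000221366, is not in GENCODE 29 had 8 and 9 reads on the same strand, beside the 8 and 12 of DGCR8. These were the only entries of other genes that overlapped a peak of the 10 genes on the same strand.

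Motif matches were few in the 3′ UTRs. On the RNA strand alone, the union of 3′ UTR models of the 10 genes held 17 UGUANAUA, of which 1, in AGO2, touched peaks of both libraries (5.88%, exact 95% interval 0.149 to 28.7), against 13.5% of such sites in all protein-coding genes with a peak. For GCACUUU it was 1 of 22, in TNRC6A, against 2.66%. For UGUUUAC it was 1 of 14, in TNRC6A, against 2.38%. For UGUGUGU, whose copies overlap each other, it was 5 of 45, with 3 in AGO2 and 2 in DROSHA, against 4.70%. The exact interval of each of these 4 shares held its background.

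The other motifs searched gave 0 under peaks of both libraries. They were the seed matches of let-7 (4 sites, background 0.708%), miR-19, UUUGCAC (16, 2.49%), miR-92, GUGCAAU (2, 4.51%), miR-101, GUACUGU (4, 7.65%), miR-103, AUGCUGC (19, 1.46%), miR-16, UGCUGCU (19, 1.94%), miR-21, AUAAGCU (5, 0.733%) and miR-221, AUGUAGC (4, 4.90%). The AU-rich elements AUUUA (145 sites, 1.38%) and UAUUUAU (20, 2.24%) and the C-rich CCUCCC (40, 0.243%) also gave 0. For AUUUA, a count of 0 of 145 allows up to 2.51% by the exact interval, which holds the background.

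Outside 3′ UTRs, 2 Pumilio motifs were found in the coding sequences of the display transcripts, both in TNRC6 genes. The UGUAAAUA of TNRC6A, at codon 1520, lay under peaks of both libraries, and the UGUAGAUA of TNRC6B, at codon 1514, under a peak of 3 reads in replicate 1. Over all protein-coding genes with a peak, 9.78% of 777 such coding motifs lay under peaks of both libraries. Of 6 copies of GCACUUU in these coding sequences, 0 lay under a peak, against 4.18% of 1341 under peaks of both libraries over all such genes. A match is a description of the letters, and no protein was measured on it.

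Windows of 51 nt around coding summits of the 10 genes held less C and more G and A than the coding sequences as a whole, 18.0% and 17.4% C against 24.99%, 30.6% and 30.7% G against 25.2%, and 30.6% and 31.9% A against 28.0%. Around all coding summits of the lists, C made up 21.0% and 21.4%, against 25.6% of the whole coding sequences, and G 30.7% and 30.9%, against 26.4%. A made up 27.3% and 26.9% there, against 26.2%. In 3′ UTRs, windows held 12.9% and 13.3% C against 19.6% in the whole UTRs, and 28.0% and 27.1% G against 21.2%. Over all protein-coding genes, 3′ UTR windows held 16.4% and 16.5% C against 20.9% in the whole UTRs, and 25.8% and 26.2% G against 21.4%. C was thus lower around summits than in the whole sequences in both regions and both libraries, for the 10 genes and for all coding genes.

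The wider pathway was given by a list of 37 other genes of microRNA processing, export, loading and turnover. Of these, 36 had peaks in both libraries, while LIN28A had none. Of the 36, 31 had a repeated peak (86.1%, against 76.2% of protein-coding genes with a peak), 29 in coding sequence (80.6%, against 55.5%), 21 in the 3′ UTR (58.3%, against 42.6%) and 12 in the 5′ UTR (33.3%, against 20.5%). The median gene of this list had 13.9 reads per kb, more than the coding-gene medians of 6.24 and 7.75. Its shares of genes with a repeated peak were not compared with those of genes with like numbers of reads. The median share of reads in the 3′ UTR was 16.6% and 13.7% over the 32 with at least 10 reads in each library. The list's leading genes had far more reads than the 10 core genes. Per kb of exon they were HSP90AB1 (517 ± 6.41) and HSP90AA1 (254 ± 1.48), the chaperones that help load Argonaute, and PTGES3 (243 ± 35.99), their co-chaperone p23. The highest 3′ UTR shares were those of AJUBA, a LIM-domain partner of Argonaute (66.0% ± 17.8), and of TSN (56.0% ± 5.91) and TSNAX (49.2% ± 1.20), the subunits of the nuclease C3PO.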

How the data were processed

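The peak lists of the 2 libraries were analysed. Reads had been handled with STAR 2.7.11, UMI-tools 1.1.4 and cutadapt 4.2 on GRCh38, per the submitters' processing notes. Per the names of the deposited files, CLIPper called the peaks after reads were filtered by loci, mismatches and score. Its version and gene models were not given in the sources used here, and 3 of the 10 gene identifiers carry another version than in GENCODE 29. Each deposited p-value of a peak is CLIPper's, and the number of reads in a peak's name and the thick interval, whose middle was taken as the summit, are the authors' other values and not normalised.

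Gene models and transcript sequences came from GENCODE 29. A summit was assigned to the 3′ UTR, coding sequence, 5′ UTR or intron, in that order. Gene shares used genes with at least 10 reads. Coordinates are 1-based. Errors are SDs over 2 libraries and intervals are exact (Clopper-Pearson). Software was matplotlib 3.10.9, scipy 1.17.1, pandas 2.3.3 and numpy 2.4.6 under Python 3.11.15. The region and overlap steps were tested on simulated data. The 10 genes, each one's strongest repeated regions and 6 of the 37 pathway genes (the 3 highest per kb and the 3 highest in 3′ UTR share) were named by rule; other regions were named after their values were seen. The genes and lists were chosen with earlier results of these data known. No test between groups was possible.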

Additional observations from a re-analysis of the deposited data

How the results depend on the processing

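No paired analysis was possible because there was only 1 group. Most repeated peaks were weak, so stricter selections left little. In replicates 1 and 2, 8 and 14 peaks had p at or under 1e-05, and 3 and 8 had at least 10 reads. Under these selections a peak counted as repeated only if its counterpart passed as well. The percents are therefore not comparable with those of the read classes above, where any peak of the second library counted. Keeping peaks with p at or under 1e-05, the mean percent of peaks found in both libraries went from 37.5 to 19.6, the median 3′ UTR share of reads from 24.6% to 29.7% (59.4% over 3 genes in replicate 1 and 0% over 4 in replicate 2), the genes with a repeated 3′ UTR peak from 6 to 0, and the motif sites under both libraries from 8 to 0, the Pumilio site and the miR-17 site from 1 to 0 each. Keeping peaks of at least 10 reads gave 22.9%, 36.5% (72.9% over 2 genes and 0% over 4), 0 genes, 0 sites in all, 0 Pumilio and 0 miR-17 sites. Asking for an overlap of 50% of both peaks gave 27.9% of peaks and 5 genes. Asking for the whole motif inside both peaks gave 5 sites. Seen from each library alone, the repeated percent was 34.8 to 40.2 and the 3′ UTR median 22.5 to 26.7. Counting neighbouring peaks across an exon junction once, chosen after seeing the data, gave 38.4% and 24.9%. With the length of 1 transcript per gene the order began TNRC6A, DROSHA, DGCR8. Under both stricter selections it began TNRC6A, DGCR8, DICER1 and AGO3 and AGO4 had 0 reads, and with at least 10 reads per peak so did AGO1, TNRC6C and DROSHA. All these values are counts, percents or levels that cannot be negative, so a change of sign was not possible.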
